A study of Arabidopsis thaliana with 6 samples.

Results

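The genes of the light-harvesting antenna and of the nuclear-encoded photosystem subunits of Arabidopsis thaliana were followed in root explants regenerating shoots in tissue culture. The members were chosen by gene identifier, for what they encode: 21 antenna genes (LHCB1 to LHCB7 and LHCA1 to LHCA6), 12 photosystem I subunit genes (PSAD to PSAO) and 10 photosystem II subunit genes (PSBO to PSBY), 43 in all. Of these, 40 had a gene identifier of their own among the 26726 genes of the expression table, and all 40 passed the filter on low counts. LHCB1.1 (AT1G29920) and LHCB1.2 (AT1G29910) are not analysed here, and the transcript of LHCB2.1 (AT2G05100) was filed under the identifier of LHCB2.2 (AT2G05070), so this pair was summed and is written LHCB2.1+LHCB2.2.

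Explants came from 3 genotypes with 2 libraries each: Pro35SARR1, which expresses the cytokinin response regulator ARR1 from the 35S promoter, a promoter active in most plant cells; arr1, a single mutant of that gene by the series design; and wild type (WT). All explants had spent 5 days on callus-inducing medium and then 7 days on shoot-inducing medium with 1 mg per litre N6-(2-isopentenyl) adenine, a cytokinin, and 0.15 mg per litre indole-3-acetic acid, an auxin, under continuous light at 22 °C, and were taken when shoot apical meristems were starting to form. The series design calls the third genotype AOE, which is taken here to be the one labelled Pro35SARR1. The sources used here do not give the arr1 allele, the accession, the number of independent transgenic lines or the number of explants in a library. Whether the 2 libraries of a genotype came from separate cultures is not stated in the labels. All p-values are therefore set against the spread between these libraries alone, and that spread may be technical.

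Chlorophyll in thylakoid membranes is held by antenna proteins of the LHC family, all encoded in the nucleus. LHCII trimers (LHCB1, LHCB2, LHCB3) and the monomeric minor antennae (LHCB4, LHCB5, LHCB6) pass light energy mainly to photosystem II, which splits water, and the LHCI belt (LHCA1 to LHCA4) passes it to photosystem I, which reduces ferredoxin. Each photosystem also needs smaller nuclear-encoded subunits around a core made mostly by the plastid genome. These genes are known to be induced together by light, by the GLK transcription factors and by cytokinin as cells turn plastids into chloroplasts, and root tissue on a cytokinin-rich medium is known to green as shoots form.

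The 6 libraries held between 8193313 and 9381532 estimated counts. ARR1 itself checked the labels in 1 direction only: it was at 1725 and 1909 CPM (counts scaled to library size) in Pro35SARR1, at 61.2 and 58.6 CPM in arr1-labelled libraries, and at 61.3 and 59.8 CPM in WT. It rose in Pro35SARR1 against WT by 4.91 ± 0.12 (log2 fold change ± standard error), and its log2 fold change between the libraries labelled arr1 and WT was -0.02 ± 0.10 (adjusted p = 0.949), so the directions given for arr1 depend on the label alone. Genes were tested with edgeR's quasi-likelihood test over all 18083 genes with enough counts, and a gene is called where its Benjamini-Hochberg adjusted p was under 0.05. The smallest two-sided p that an exact permutation test of 2 against 2 libraries can give is 0.333, so no single value was tested that way.

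Members of several families are near copies of each other, which decides what a level can mean. The coding sequences of LHCB1.1, LHCB1.2 and LHCB1.3, which lie side by side on chromosome 1, share 95.6% to 96.4% of bases in pairs, and 47 of their 804 coding positions differ among the 3 genes. Coding bases 25 to 84 of the RefSeq annotation of build TAIR10.1, the 60-base stretch with the most differences, are shown after the gene coordinates, with the 8 positions that differ in capitals:
LHCB1.1 (chr1:10474656-10475969, minus strand): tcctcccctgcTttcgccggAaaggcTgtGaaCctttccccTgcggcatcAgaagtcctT
LHCB1.2 (chr1:10472280-10473502, minus strand): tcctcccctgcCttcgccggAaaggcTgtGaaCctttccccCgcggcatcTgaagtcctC
LHCB1.3 (chr1:10477885-10479114, plus strand): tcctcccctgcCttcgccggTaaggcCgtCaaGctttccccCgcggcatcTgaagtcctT
Reads of these 3 genes may therefore be counted at LHCB1.3, and the level given for LHCB1.3 may hold all of them. LHCB2.1 and LHCB2.2 share 96.6% of coding bases. The pairs LHCB4.1 and LHCB4.2 (81.1%), PSAD1 and PSAD2 (86.3%), PSAE1 and PSAE2 (77.3%), PSAH1 and PSAH2 (87.0%), PSBO1 and PSBO2 (83.6%) and PSBQ1 and PSBQ2 (76.9%) are further apart.

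All 3 groups were low in Pro35SARR1 and high in WT. The antenna genes together made up 3612 and 5539 FPKM (a level per transcript length and library size) in Pro35SARR1, 6261 and 6196 FPKM in the libraries labelled arr1, and 7008 and 8653 FPKM in WT. The photosystem I subunit genes summed to 2186 and 3018 FPKM in Pro35SARR1, 2954 and 3250.1 FPKM in the libraries labelled arr1, and 3782 and 4778 FPKM in WT. The photosystem II subunit genes summed to 2433 and 3439 FPKM in Pro35SARR1, 3062 and 3367 FPKM in the libraries labelled arr1, and 4205 and 5286 FPKM in WT. In each group both WT libraries lay above the other 4 libraries, while replicate 2 of Pro35SARR1 lay above the lower library labelled arr1 in both photosystem groups. The mean of the summed antenna FPKM in Pro35SARR1 was 0.584 times the WT mean, and those of photosystem I and photosystem II were 0.608 and 0.619 times it. In the libraries labelled arr1 the order of the groups was turned round, at 0.795 times the WT mean for the antenna, 0.725 for photosystem I and 0.677 for photosystem II. As a share of all estimated counts, the 40 members took 0.668% and 0.937% in Pro35SARR1, 1.097% and 1.113% in the libraries labelled arr1, and 1.21% and 1.43% in WT. In such bulk samples fewer green cells and less RNA of these genes per cell cannot be told apart.

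**Figure D1:**
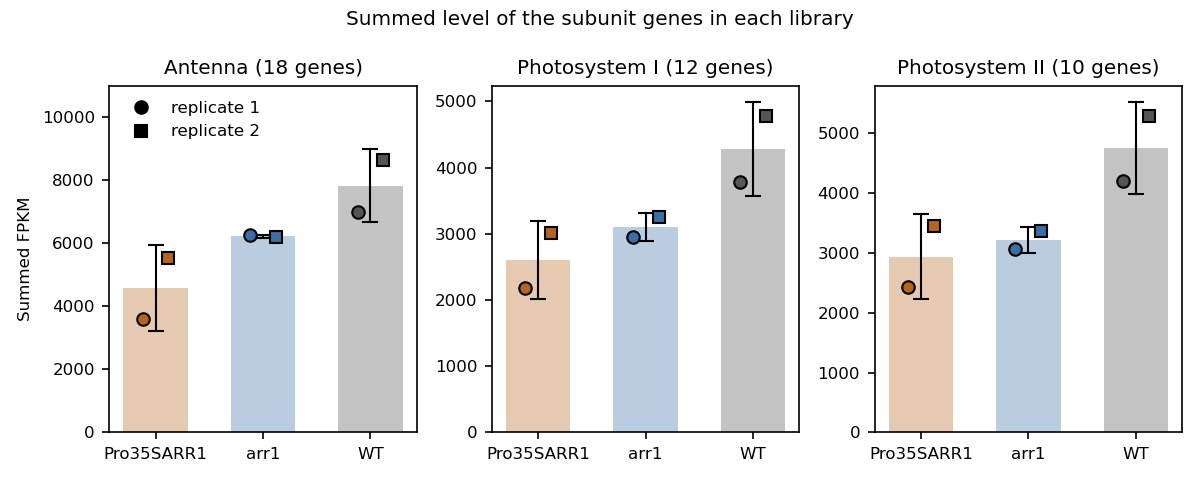
Summed level (FPKM, linear axis from 0) of the antenna, photosystem I and photosystem II genes in each of the 6 libraries, with points for libraries, bars for the mean of the 2 libraries of a genotype and error bars for their SD. Pro35SARR1 has the lowest library in each group, and both WT libraries lie above the other 4.

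The members differed over a wide range of levels. Averaged over the 6 libraries, LHCB1.3 stood at 2254 FPKM, ahead of PSBR at 971 FPKM, LHCB1.5 at 732 FPKM and PSBX at 588 FPKM. At the other end were LHCB7 at 2.24 FPKM, LHCB1.4 at 7.59 FPKM and LHCA6 at 8.50 FPKM. The spread of levels thus lay mainly within the antenna, where LHCB1.3 alone gave 1202 and 1952 FPKM of the Pro35SARR1 sums and 2391 and 3082 FPKM of the WT sums.

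**Figure D2:**
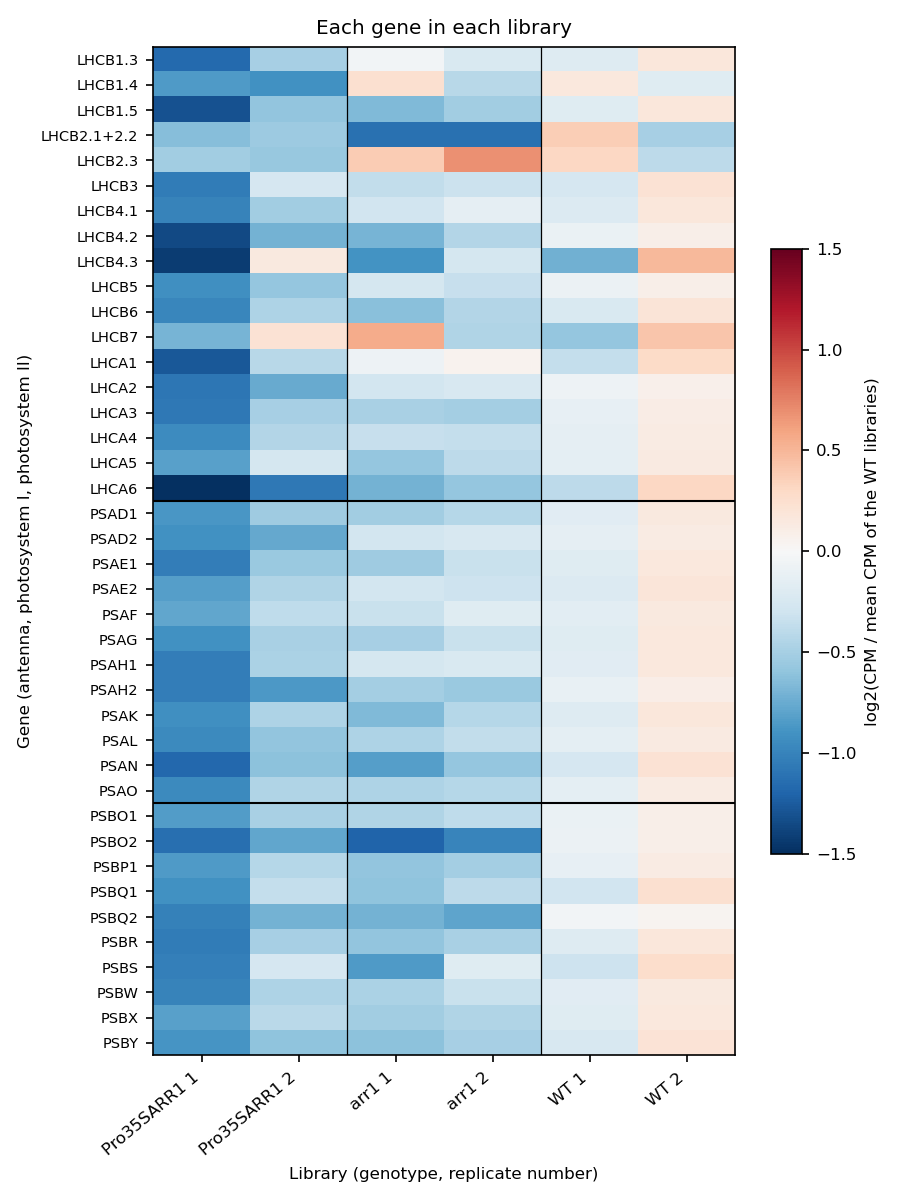
Level of each of the 40 members in each library relative to the mean of the 2 WT libraries (log2 of the CPM ratio, colour scale), with 1 line for each member, in the order of their groups. The Pro35SARR1 replicate 1 column is the lowest for most members and the WT replicate 2 column the highest.

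The first comparison asks what ARR1 overexpression goes with, Pro35SARR1 against WT. All 40 members had a negative log2 fold change, against 50.4% of all genes tested, with a median of -0.72 (a fold of 0.608) and a range from -1.28 for LHCA6 to -0.17 for LHCB7. The medians of the 3 groups were close together, at -0.74 for the antenna, -0.71 for photosystem I and -0.68 for photosystem II, beside -0.0027 for all genes tested. For 37 of the 40 members both Pro35SARR1 libraries lay below both WT libraries, a pattern shown by 18.6% of all genes tested. No member passed the test: edgeR called 0 of 40, with adjusted p from 0.126 to 0.958, and it called 0% of all genes lower and 0.0885% higher. At an unadjusted p under 0.05, 31 members were lower, against 4.82% of all genes. With the replicate number as a block, edgeR called 23 members lower (6 of 18 antenna, 9 of 12 photosystem I and 8 of 10 photosystem II genes), against 0.89% of all genes, and DESeq2 called 11 lower, against 0.383% of all genes with a DESeq2 adjusted p.

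The second comparison sets the libraries labelled arr1 against WT. Here 38 of 40 members had a negative log2 fold change, against 50.2% of all genes tested, and the median was -0.46 (a fold of 0.728). The groups lay further apart than in Pro35SARR1, with medians of -0.35 for the antenna, -0.42 for photosystem I and -0.51 for photosystem II, beside -0.0020 for all genes tested. Both libraries labelled arr1 lay below both WT libraries for 32 members (11 antenna, 12 photosystem I and 9 photosystem II genes), against 27.2% of all genes tested, and above them for 1, LHCB2.3. PSBO2 and PSBQ2, both of the oxygen-evolving complex, were the 2 members that edgeR called lower, 2 of 40 against 1.9% of all genes. At an unadjusted p under 0.05, 15 members were lower (3 antenna, 5 photosystem I and 7 photosystem II genes), against 12.4% of all genes. With the replicate number as a block 20 members were called lower (4 antenna, 7 photosystem I and 9 photosystem II genes), against 9.51% of all genes, and DESeq2 called 4, against 4.54% of all genes with a DESeq2 adjusted p.

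The third comparison is Pro35SARR1 against the libraries labelled arr1. The median over the 40 members was -0.29, with 37 negative, against 51.6% of all genes tested. It was -0.38 in the antenna, -0.32 in photosystem I and -0.11 in photosystem II. Both Pro35SARR1 libraries lay below both libraries labelled arr1 for 19 members, 10 of them antenna, 8 photosystem I and 1 photosystem II genes, against 30.1% of all genes tested. edgeR called 0 of the 40 members, while it called 2.38% of all genes lower and 4.09% higher. At an unadjusted p under 0.05, 8 members were lower, against 11.4% of all genes, and DESeq2 called 1, LHCA2, against 3.58% of all genes with a DESeq2 adjusted p. The replicate block called 9 members lower (5 antenna, 4 photosystem I and 0 photosystem II genes), against 8.82% of all genes. Replicate 1 of Pro35SARR1 decided much of the size: without it the median over the members was -0.06 with 24 of 40 negative, and without replicate 2 of Pro35SARR1 it was -0.54 with 39 negative. The difference between the groups in any of the 3 comparisons was not tested, and the comparisons share libraries, so they are not independent of each other.

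**Figure D3:**
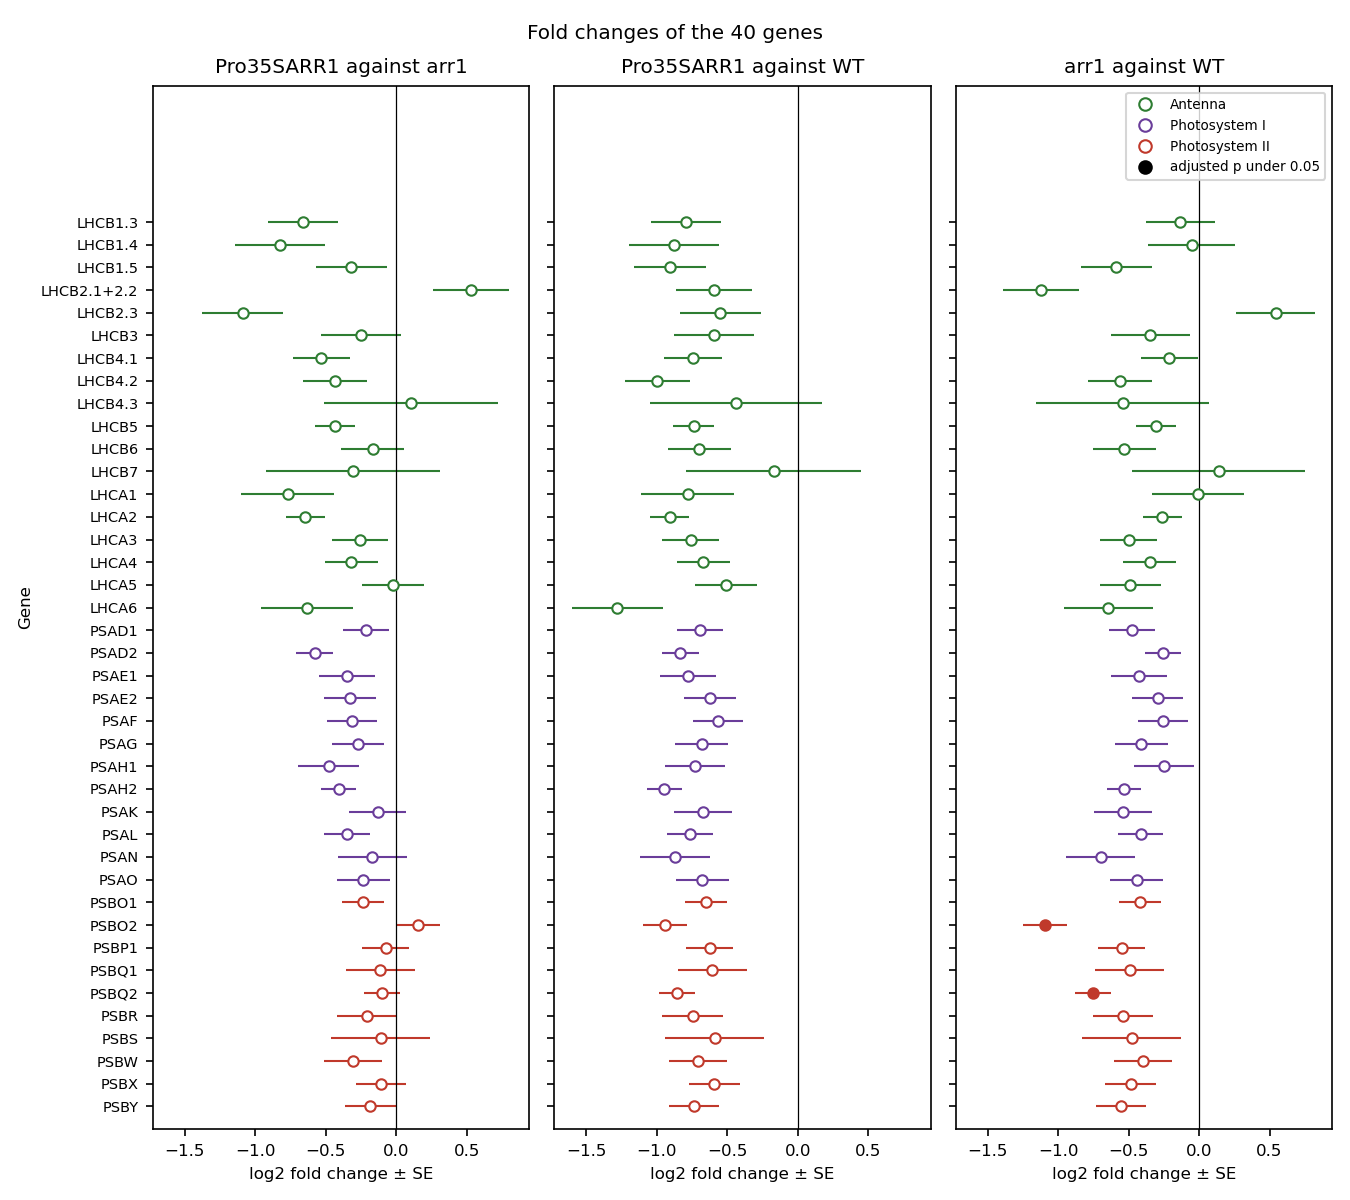
Log2 fold change with its standard error (edgeR) for each of the 40 members in the 3 comparisons, Pro35SARR1 against WT, arr1 against WT and Pro35SARR1 against arr1, with members grouped by role. The 40 values of Pro35SARR1 against WT lie below 0, and PSBO2 and PSBQ2 in arr1 against WT are the only called values.

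The 2 libraries of a genotype did not stand level. The members were higher in replicate 2 than in replicate 1 by a median of 1.38 times in Pro35SARR1 (38 of 40 members), 1.08 times in arr1 (30 of 40) and 1.251 times in WT (37 of 40), while the median gene of the whole table differed by less than 0.013 on the log2 scale in each genotype. Within replicate 1, the median log2 ratio of Pro35SARR1 to WT was -0.81, and within replicate 2 it was -0.65, negative for all 40 members in both. Between the libraries labelled arr1 and WT it was -0.32 in replicate 1 (35 negative) and -0.53 in replicate 2 (39 negative). Pro35SARR1 against the libraries labelled arr1 gave -0.51 in replicate 1 (38 negative) and -0.10 in replicate 2 (29 negative), where the photosystem II genes split into 5 negative and 5 positive. The sources used here do not say what the replicate numbers stand for.

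Among the photosystem II subunits, the extrinsic proteins of the oxygen-evolving complex held both called genes. PSBO2 (AT3G50820, deposited coordinates chr3:18890876-18892426, minus strand), which encodes 1 of the forms of the manganese-stabilising protein, was at 135 and 173 CPM in Pro35SARR1, 129 and 149 CPM in arr1-labelled libraries and 279 and 314 CPM in WT. Both WT libraries lay well above the other 4, and Pro35SARR1 and the libraries labelled arr1 overlapped. PSBO2 fell in the libraries labelled arr1 against WT by 1.09 ± 0.16 on the log2 scale (edgeR adjusted p = 0.0372), and its log2 fold change in Pro35SARR1 against WT was -0.94 ± 0.16 (adjusted p = 0.172, and 0.0213 with the replicate block). It is also the only member among the 437 genes of the authors' deposited table for arr1 against WT, which gives it a log2 fold change of -1.11 and an adjusted p (FDR) of 0.000173. The call was lost when any 1 of the 6 libraries was left out, with adjusted p from 0.061 to 0.257.

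PSBQ2 (AT4G05180, deposited coordinates chr4:2671822-2673243, minus strand), which encodes 1 of the PsbQ proteins that help bind calcium and chloride at the water-splitting site, was at 96.7 and 119 CPM in Pro35SARR1, 119 and 112 CPM in arr1-labelled libraries and 189 and 201 CPM in WT. The WT libraries again stood apart from the other 4. PSBQ2 fell in the libraries labelled arr1 against WT by 0.75 ± 0.13 on the log2 scale (adjusted p = 0.0473), and this call too was lost without any 1 library (0.076 to 0.307). In Pro35SARR1 against WT its log2 fold change was -0.85 ± 0.13 (adjusted p = 0.153, and 0.0326 with the block).

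The paralogue of PSBO2, PSBO1, stood at 378 and 484 CPM in Pro35SARR1, 495 and 519 CPM in arr1-labelled libraries and 632 and 723 CPM in WT. Its libraries did not overlap with WT in either genotype, and its log2 fold changes against WT were -0.65 ± 0.15 in Pro35SARR1 (adjusted p = 0.2705) and -0.42 ± 0.15 in arr1 (adjusted p = 0.182), with 0.0368 and 0.0358 under the block. PSBO2 gave 26.4% and 26.4% of the FPKM of the pair in Pro35SARR1, 20.6% and 22.3% in the libraries labelled arr1 and 30.6% and 30.3% in WT, so the genotypes did not overlap in this share. Among the other shares, PSBQ2 in its pair was at 38.3% and 34.3% in Pro35SARR1, 38.3% and 33.5% in the libraries labelled arr1 and 44.0% and 36.8% in WT, which overlapped. No test of these shares was made.

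PSBP1, whose protein binds beside PsbO, was at 274 and 365 CPM in Pro35SARR1, 327 and 345 CPM in arr1-labelled libraries and 449.9 and 534 CPM in WT. PSBR, a small subunit needed to hold PsbP, was at 338 and 493 CPM in Pro35SARR1, 461 and 498 CPM in arr1-labelled libraries and 609.7 and 783 CPM in WT. In both genes all 4 libraries of the other genotypes lay below WT. The log2 fold changes of PSBP1 against WT were -0.62 ± 0.17 in Pro35SARR1 (adjusted p = 0.332) and -0.55 ± 0.17 in arr1 (adjusted p = 0.141), and those of PSBR -0.75 ± 0.21 in Pro35SARR1 (adjusted p = 0.359) and -0.54 ± 0.21 in arr1 (adjusted p = 0.2205). PSBQ1 was at 131 and 191 CPM in Pro35SARR1, 161 and 187 CPM in arr1-labelled libraries and 201 and 288 CPM in WT, the lower WT library only just above the highest of the others, at -0.60 ± 0.25 in Pro35SARR1 (adjusted p = 0.514) and -0.49 ± 0.25 in arr1 (adjusted p = 0.309). With the replicate block all 6 oxygen-evolving complex genes were called lower in the libraries labelled arr1 against WT, against 9.51% of all genes. All but PSBQ1 were called lower in Pro35SARR1 against WT, against 0.89% of all genes.

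PSBS, which carries the rapid quenching of excess light energy, was the photosystem II gene whose libraries mixed most: 94.7 and 161 CPM in Pro35SARR1, 107 and 169 CPM in arr1-labelled libraries and 155 and 230.3 CPM in WT. Replicate 1 was the lower in every genotype, WT overlapped with both of the others, and with the replicate block PSBS was called lower in Pro35SARR1 (adjusted p = 0.0363) and in arr1 (0.0182) against WT. The small membrane subunits PSBW, PSBX and PSBY did not overlap with WT. PSBY, for example, was at 96.9 and 117 CPM in Pro35SARR1, 117 and 127 CPM in arr1-labelled libraries and 151 and 205 CPM in WT, with log2 fold changes of -0.74 ± 0.18 in Pro35SARR1 and -0.55 ± 0.18 in arr1 (adjusted p = 0.292 and 0.156, and 0.0363 and 0.0222 with the block). With the block PSBW was also called lower in Pro35SARR1 (adjusted p = 0.0427) and PSBX in arr1 (0.0355).

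In the antenna, the LHCII genes behaved less alike than the photosystem subunits. LHCB1.3 (AT1G29930), which heads the trimeric antenna, was at 1083 and 1719.8 CPM in Pro35SARR1, 2357 and 2075 CPM in arr1-labelled libraries and 2129.7 and 2729 CPM in WT. Pro35SARR1 lay below the other 4 libraries, and the libraries labelled arr1 overlapped with WT. Its log2 fold changes were -0.79 ± 0.25 in Pro35SARR1 against WT (adjusted p = 0.384) and -0.13 ± 0.25 in arr1 against WT (adjusted p = 0.793). LHCB1.5 (AT2G34420), a second abundant LHCB1 gene, was at 360.3 and 592 CPM in Pro35SARR1, 565 and 623 CPM in arr1-labelled libraries and 785 and 1001 CPM in WT, so here both genotypes lay below WT, at -0.91 and -0.59. Neither value passed the test, and both did with the replicate block (adjusted p = 0.0415 and 0.0457). LHCB3 was at 138 and 239 CPM in Pro35SARR1, 219.8 and 228 CPM in arr1-labelled libraries and 239.8 and 329.7 CPM in WT. All 4 libraries of the other genotypes lay below WT, replicate 2 of Pro35SARR1 only just. LHCB1.4 stayed between 4.13 and 9.19 CPM in all libraries.

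LHCB2, whose protein is phosphorylated when LHCII moves between the photosystems, gave the members most at odds with the rest. LHCB2.1+LHCB2.2 was at 160.5 and 172 CPM in Pro35SARR1, 115 and 115 CPM in arr1-labelled libraries and 323 and 178 CPM in WT. It was the only member with both Pro35SARR1 libraries above both libraries labelled arr1, against 28.7% of all genes tested. Its log2 fold change was -1.12 ± 0.27 in arr1 against WT (adjusted p = 0.0888, and 0.03298 with the replicate block), the most negative of the 40 in that comparison, and 0.53 ± 0.27 in Pro35SARR1 against arr1 (adjusted p = 0.289). The 2 WT libraries lay 323 to 178 CPM apart, and the arr1 value moved with them: it was -0.64 without WT replicate 1 (adjusted p = 0.109) and -1.49 without WT replicate 2 (adjusted p = 0.0448).

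LHCB2.3 (AT3G27690) went the other way, at 7.28 and 7.04 CPM in Pro35SARR1, 13.7 and 16.9 CPM in arr1-labelled libraries and 12.97 and 7.98 CPM in WT. It was the 1 member higher in both libraries labelled arr1 than in both WT libraries (0.54 ± 0.28, adjusted p = 0.321), a pattern shown by 27.2% of all genes tested. It had the most negative log2 fold change of all members in Pro35SARR1 against arr1 (-1.09 ± 0.29, adjusted p = 0.0836, and 0.0424 with the block). LHCB2.3 made up 5.15% and 4.69% of LHCB2 FPKM in Pro35SARR1, 12.4% and 14.8% in the libraries labelled arr1 and 4.57% and 5.07% in WT. Both libraries labelled arr1 stood apart from the other 4 in this share. The coding sequence of LHCB2.3 shares 84.4% and 85.5% of bases with those of LHCB2.2 and LHCB2.1.

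**Figure D4:**
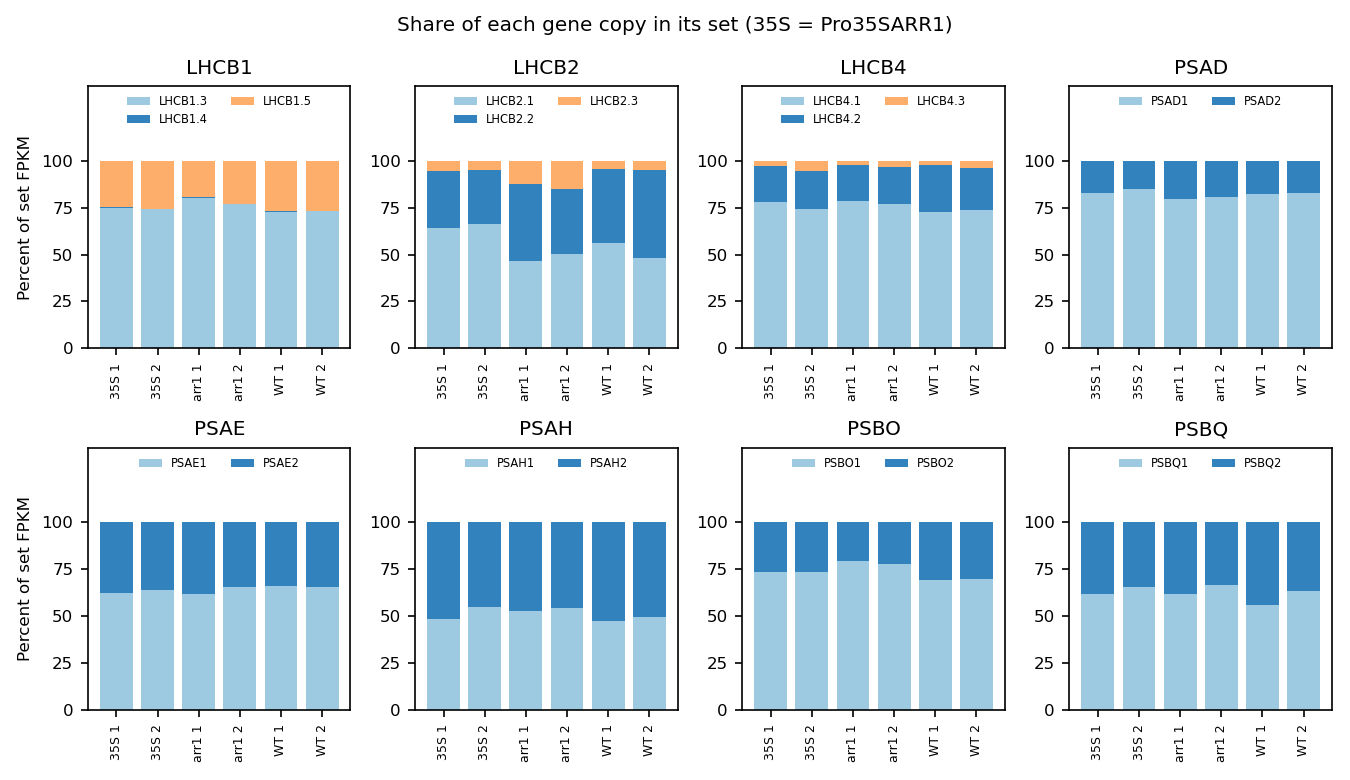
Share of each paralogue in the summed FPKM of its set (percent, stacked bars from 0), with 1 bar a library, for 8 sets of paralogues (35S stands for Pro35SARR1). PSBO2 is at 26.4% in both Pro35SARR1 libraries, 20.6% and 22.3% in the libraries labelled arr1 and 30.6% and 30.3% in WT, and LHCB2.3 is at 12.4% and 14.8% in the libraries labelled arr1 and lower in the other 4.

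The minor antennae link LHCII to the photosystem II core. LHCB4.2 was at 74.3 and 116 CPM in Pro35SARR1, 117 and 139.9 CPM in arr1-labelled libraries and 178 and 202 CPM in WT, with log2 fold changes against WT of -0.99 ± 0.23 in Pro35SARR1 (adjusted p = 0.276) and -0.56 ± 0.23 in arr1 (adjusted p = 0.226). LHCB5 was at 326 and 412 CPM in Pro35SARR1, 515 and 482 CPM in arr1-labelled libraries and 579 and 653 CPM in WT, with the 3 genotypes in separate ranges (-0.74 ± 0.14 in Pro35SARR1, adjusted p = 0.2097, and -0.30 ± 0.14 in arr1, adjusted p = 0.284). LHCB6 was at 226 and 325 CPM in Pro35SARR1, 290.2 and 329 CPM in arr1-labelled libraries and 381 and 513 CPM in WT (-0.70 ± 0.22 in Pro35SARR1, adjusted p = 0.398, and -0.53 ± 0.22 in arr1, adjusted p = 0.241). In all 3 genes WT stood above the other genotypes, and the replicate block called each of them lower in Pro35SARR1 (adjusted p = 0.032, 0.0434 and 0.0394), LHCB4.2 and LHCB6 lower in arr1 (0.0356 and 0.0271) and LHCB5 lower in Pro35SARR1 against arr1 (0.0458). LHCB4.1 was at 329 and 459 CPM in Pro35SARR1, 540.3 and 598 CPM in arr1-labelled libraries and 574 and 744 CPM in WT, where arr1 and WT overlapped. With the block it was called lower in Pro35SARR1 against WT (adjusted p = 0.0346) and against arr1 (0.0174). LHCB4.3 (9.22 to 34.6 CPM) and LHCB7 (1.252 to 2.99 CPM) were low and mixed among the genotypes.

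Of the LHCI genes, LHCA2 (AT3G61470) separated Pro35SARR1 from the libraries labelled arr1 best: 157 and 198 CPM in Pro35SARR1, 274 and 280.1 CPM in arr1-labelled libraries and 315 and 349 CPM in WT. The 3 genotypes lay in separate ranges. Its log2 fold changes were -0.65 ± 0.14 in Pro35SARR1 against arr1 (adjusted p = 0.0536, and 0.00952 with the block), -0.91 ± 0.14 in Pro35SARR1 against WT (adjusted p = 0.154, and 0.0297 with the block) and -0.26 ± 0.14 in arr1 against WT (adjusted p = 0.329). LHCA1 was at 129 and 233 CPM in Pro35SARR1, 296 and 322 CPM in arr1-labelled libraries and 242 and 380.1 CPM in WT, where the libraries labelled arr1 fell inside the WT range (log2 fold change -0.01). Its log2 fold change in Pro35SARR1 against arr1 was -0.77 (adjusted p = 0.217, and 0.0263 with the block). LHCA3 was at 188 and 279.5 CPM in Pro35SARR1, 281 and 277 CPM in arr1-labelled libraries and 363 and 427 CPM in WT, and LHCA4 was at 322 and 458 CPM in Pro35SARR1, 488 and 486 CPM in arr1-labelled libraries and 566 and 674 CPM in WT. Both lay below WT in the other genotypes, LHCA3 at -0.76 ± 0.20 in Pro35SARR1 (adjusted p = 0.328) and -0.50 ± 0.20 in arr1 (adjusted p = 0.225). LHCA6, whose protein is known to link photosystem I to the NDH complex, had the most negative value of all members in Pro35SARR1 against WT, at 3.87 and 5.25 CPM in Pro35SARR1, 6.78 and 7.402 CPM in arr1-labelled libraries and 8.46 and 13.7 CPM in WT (-1.28 ± 0.33, adjusted p = 0.307, and -0.64 ± 0.32 in arr1, adjusted p = 0.302). LHCA5, which shares that role, was at 21.97 and 32.2 CPM in Pro35SARR1, 25.7 and 29.3 CPM in arr1-labelled libraries and 34.7 and 42.4 CPM in WT.

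All 12 photosystem I subunit genes lay below WT in both libraries of both genotypes. Of all genes tested, 18.6% lay so in Pro35SARR1 and 27.2% in the libraries labelled arr1. PSAH2 (AT1G52230, deposited coordinates chr1:19454836-19455668, plus strand), whose protein takes part in docking LHCII to photosystem I, was at 49.6 and 55.9 CPM in Pro35SARR1, 71.2 and 68.9 CPM in arr1-labelled libraries and 94.3 and 109 CPM in WT. Its ranges did not touch. The log2 fold changes were -0.94 ± 0.12 in Pro35SARR1 against WT (adjusted p = 0.126, the lowest of the 40 members there, and 0.0297 with the block), -0.54 ± 0.12 in arr1 against WT (adjusted p = 0.0793, and 0.0218 with the block) and -0.41 in Pro35SARR1 against arr1 (adjusted p = 0.1096, and 0.03902 with the block). PSAL, its neighbour at that docking side, was at 169.9 and 219 CPM in Pro35SARR1, 240.4 and 255 CPM in arr1-labelled libraries and 299 and 362 CPM in WT, again in 3 separate ranges (-0.76 ± 0.16 in Pro35SARR1, adjusted p = 0.239, and -0.41 ± 0.16 in arr1, adjusted p = 0.212). With the block PSAL was called lower in all 3 comparisons (adjusted p = 0.0316 and 0.0381 against WT and 0.0465 in Pro35SARR1 against arr1). PSAH1, the paralogue of PSAH2, was at 46.4 and 68.7 CPM in Pro35SARR1, 79.1 and 81.5 CPM in arr1-labelled libraries and 84.5 and 106 CPM in WT. It lay nearer to WT in the arr1-labelled libraries than PSAH2 did, at -0.25 ± 0.21 (adjusted p = 0.539), and at -0.73 ± 0.21 in Pro35SARR1 (adjusted p = 0.372); the difference between the copies was not tested.

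PSAD and PSAE form the stromal side, where ferredoxin docks. PSAD2 was at 30.7 and 33.9 CPM in Pro35SARR1, 47.7 and 48.7 CPM in arr1-labelled libraries and 52.5 and 62.5 CPM in WT, with its log2 fold change of -0.58 ± 0.13 in Pro35SARR1 against arr1 at an adjusted p of 0.0609, and 0.0157 with the block. Against WT it was -0.83 ± 0.13 in Pro35SARR1 (adjusted p = 0.164, and 0.0316 with the block) and -0.25 ± 0.13 in arr1 (adjusted p = 0.312). The more abundant PSAD1 was at 136 and 173 CPM in Pro35SARR1, 173 and 186 CPM in arr1-labelled libraries and 223 and 276 CPM in WT, and PSAE1 at 96.4 and 134 CPM in Pro35SARR1, 136 and 157 CPM in arr1-labelled libraries and 174 and 220.2 CPM in WT. Both had Pro35SARR1 at or below the libraries labelled arr1, and WT above. PSAD1 was at -0.69 ± 0.16 in Pro35SARR1 against WT (adjusted p = 0.29) and -0.47 ± 0.16 in arr1 (adjusted p = 0.177), and PSAE1 at -0.78 ± 0.20 (adjusted p = 0.313) and -0.43 ± 0.20 (adjusted p = 0.2797). With the block both were called lower in Pro35SARR1 (0.0335 and 0.0306) and in arr1 (0.0254 and 0.0339), and PSAE1 in Pro35SARR1 against arr1 (0.0448). PSAE2, the less abundant copy, was at 47.1 and 61.2 CPM in Pro35SARR1, 68.7 and 67.4 CPM in arr1-labelled libraries and 72.5 and 94.4 CPM in WT. On the lumenal side, PSAN, which helps plastocyanin bind, was at 112 and 166 CPM in Pro35SARR1, 143 and 169.6 CPM in arr1-labelled libraries and 213 and 295 CPM in WT, and it had the most negative photosystem I value in arr1 against WT (-0.70 ± 0.25, adjusted p = 0.181, and 0.0123 with the block), beside -0.87 ± 0.25 in Pro35SARR1 (adjusted p = 0.348, and 0.0302 with the block). PSAK, at the antenna side, was at 175 and 241 CPM in Pro35SARR1, 209 and 247 CPM in arr1-labelled libraries and 290.4 and 372 CPM in WT, at -0.67 ± 0.20 in Pro35SARR1 (adjusted p = 0.378, and 0.0322 with the block) and -0.54 ± 0.20 in arr1 (adjusted p = 0.204, and 0.0148 with the block). It was the photosystem I gene with the highest level, 438 FPKM over the 6 libraries. PSAE2 and the genes PSAF, PSAG and PSAO had log2 fold changes against WT of -0.68 to -0.57 in Pro35SARR1 and of -0.44 to -0.25 in arr1.

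Genes that work beside the members were looked at in lists drawn up by pathway. In the libraries labelled arr1 against WT, the carbon fixation list of 15 genes had a median log2 fold change of -0.70, the electron transport and ATP synthase list of 13 genes -0.38, and the lists for chlorophyll synthesis (14 genes tested) and antenna insertion and state transitions (10 genes) -0.18 and -0.08. edgeR called 1 gene lower in the second of these, ATPD, the delta subunit of the chloroplast ATP synthase, and no other gene of the 4 lists in either direction. ATPD was at 102 and 115 CPM in Pro35SARR1, 83.5 and 82.7 CPM in arr1-labelled libraries and 158 and 179.6 CPM in WT, and it fell in the libraries labelled arr1 by 1.02 ± 0.12 on the log2 scale (adjusted p = 0.0264), with both arr1-labelled libraries below the other 4. With the replicate block, 12 of 15 carbon fixation genes, 6 of 13 electron transport and ATP synthase genes, 1 of 14 chlorophyll synthesis genes and 1 of 10 antenna insertion genes were called lower, against 9.51% of all genes. In Pro35SARR1 against WT the medians were -0.85 for carbon fixation, -0.61 for electron transport and ATP synthase, -0.56 for chlorophyll synthesis and -0.46 for antenna insertion, with no gene called in the 4 lists, and with the block 11, 7, 4 and 1 of them were called lower, against 0.89% of all genes.

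In Pro35SARR1 against the libraries labelled arr1, edgeR called 1 gene lower in each of 3 photosynthesis lists, against 2.38% of all genes. These were 1 of 14 chlorophyll synthesis genes, 1 of 10 antenna insertion genes and 1 of 14 greening regulators. It called 0 of 13 electron transport and ATP synthase genes and 0 of 15 carbon fixation genes lower. PORB, which makes chlorophyllide in the light, was at 94.9 and 111 CPM in Pro35SARR1, 201 and 169 CPM in arr1-labelled libraries and 151 and 169 CPM in WT, and fell against arr1 by 0.84 ± 0.14 on the log2 scale (adjusted p = 0.0317). TAP38, the phosphatase that releases LHCII from photosystem I, was at 25.2 and 30.1 CPM in Pro35SARR1, 42.2 and 45.5 CPM in arr1-labelled libraries and 39.01 and 41.6 CPM in WT, and fell against arr1 by 0.67 ± 0.13 (adjusted p = 0.0463). GNC, a GATA factor that promotes greening downstream of cytokinin, was at 4.55 and 3.13 CPM in Pro35SARR1, 11.1 and 12.3 CPM in arr1-labelled libraries and 8.01 and 6.18 CPM in WT, and fell against arr1 by 1.61 ± 0.29 (adjusted p = 0.0374). The block called 7 of 14 chlorophyll synthesis genes, 3 of 10 antenna insertion genes and 4 of 14 greening regulators lower, against 8.82% of all genes. It called 3 carbon fixation genes lower and 2 higher, and 1 electron transport and ATP synthase gene lower and 2 higher (FD1 and ATPD), against 11.5% of all genes higher. In PORB, TAP38 and GNC, Pro35SARR1 was the low genotype and arr1 was level with or above WT.

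The list of 14 greening regulators pools activators of greening with factors of other roles, among them the PIF genes and GUN1. Its counts and medians therefore do not measure activators of greening alone. Of the 14, 13 were negative in Pro35SARR1 against WT (median -0.55), against 50.4% of all genes tested. In Pro35SARR1 against arr1 12 were negative (median -0.45), against 51.6% of all genes. In arr1 against WT 6 were negative (median 0.03), against 50.2% of all genes. The 4 called with the block in Pro35SARR1 against arr1 were GNC, GLK2, PIF5 and GUN1. GLK1, an activator of antenna and chlorophyll genes, was at 7.06 and 0.335 CPM in Pro35SARR1, 7.35 and 3.302 CPM in arr1-labelled libraries and 12.6 and 3.93 CPM in WT, so its replicates differed more than its genotypes. GLK2, its paralogue, was at 7.17 and 9.496 CPM in Pro35SARR1, 17.7 and 23.1 CPM in arr1-labelled libraries and 8.34 and 17.9 CPM in WT, with a log2 fold change of -1.29 in Pro35SARR1 against arr1 (adjusted p = 0.115, and 0.0158 with the replicate block). GNL, the paralogue of GNC, was at 26.9 and 8.83 CPM in Pro35SARR1, 13.6 and 8.996 CPM in arr1-labelled libraries and 29.2 and 11.5 CPM in WT, with replicate 1 the higher each time. HY5, a central activator of light responses, was at 25.3 to 34.3 CPM in all 6 libraries. ELIP1, an early light-induced chlorophyll-binding relative of the antenna proteins, was at 78.99 and 72.6 CPM in Pro35SARR1, 30.6 and 31.1 CPM in arr1-labelled libraries and 90.4 and 76.3 CPM in WT. ELIP1 fell in the libraries labelled arr1 against WT by 1.44 ± 0.13 on the log2 scale (adjusted p = 0.0219) and rose in Pro35SARR1 against arr1 by 1.298 ± 0.127 (adjusted p = 0.0126), with its 2 libraries a genotype close together. It belongs to a separate light stress list, whose 5 tested genes did not move together. In arr1 against WT 2 were negative and 3 positive (median 0.05). With the block, ELIP2 was called lower there (-0.60, adjusted p = 0.0406) and ZAT10 higher (0.82, adjusted p = 0.0274).

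**Figure D5:**
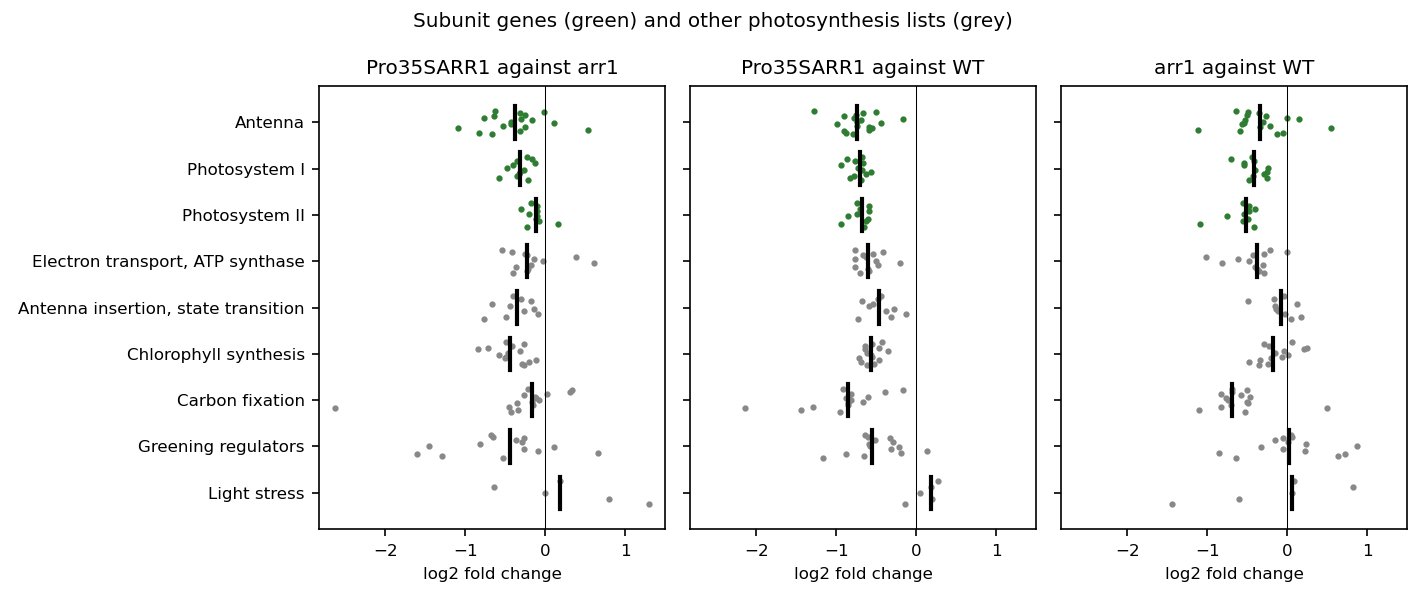
Log2 fold changes of the genes in the 3 member groups (green) and in 6 pathway lists (grey), for the 3 comparisons on a shared axis, with 1 point a gene and a black bar at the median. In Pro35SARR1 against WT the bars of the member groups and of carbon fixation lie between -0.85 and -0.68. The bar of the greening regulators lies at -0.55 in Pro35SARR1 against WT and at 0.03 in arr1 against WT.

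Markers of other cell types were followed too, and they did not all move alike. The 8 shoot markers, among them the meristem gene STM and the epidermal genes ATML1 and PDF1, summed to 93.6 and 103 CPM in Pro35SARR1, 611 and 663 CPM in arr1-labelled libraries and 50.1 and 79.4 CPM in WT. PDF1 alone gave 438 and 472 CPM of the sums in the arr1-labelled libraries. Of the 8, edgeR called 5 higher in the libraries labelled arr1 against WT (STM, FIL, YAB3, ATML1 and PDF1), against 1.09% of all genes. It called the same 5 lower in Pro35SARR1 against arr1, against 2.38% of all genes. WUS, CUC1 and CUC2 were called in neither comparison, and no shoot marker was called in Pro35SARR1 against WT. WUS, of the same list and named here after its values were seen, was at 41.1 and 29.4 CPM in Pro35SARR1, 10.5 and 6.04 CPM in arr1-labelled libraries and 13.9 and 5.96 CPM in WT. Its log2 fold change was 1.83 ± 0.46 in Pro35SARR1 against WT (adjusted p = 0.305, and 0.0297 with the block) and 2.09 ± 0.47 against arr1 (adjusted p = 0.0594, and 0.00341 with the block). A list of 6 markers took in the stomatal lineage and guard cells, of which 4 were tested and MUTE was at or near 0. These markers summed to 3.53 and 2.12 CPM in Pro35SARR1, 13.3 and 13.1 CPM in arr1-labelled libraries and 9.70 and 4.83 CPM in WT. Of the 4 tested, 3 were positive and 1, KAT1, was negative in arr1 against WT. KAT1 was at 1.14 and 0.223 CPM in Pro35SARR1, 0.115 and 0.114 CPM in arr1-labelled libraries and 1.58 and 0.674 CPM in WT. The 8 root and callus markers summed to 68.6 and 73.3 CPM in Pro35SARR1, 103 and 89.5 CPM in arr1-labelled libraries and 76.0 and 76.4 CPM in WT, with LBD16 and LBD29 near 0. In Pro35SARR1 against arr1, edgeR called 1 of the 4 tested stomatal lineage and guard cell markers lower, TMM. It called 2 of the 6 tested root and callus markers lower there, SCR and PLT2. The share over all genes was 2.38%. No gene of these 2 lists was called in the other comparisons. Their part in the members' differences was not tested.

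The sequences before the member genes were read for motifs in the 300 bases upstream of each annotated start (RefSeq, build TAIR10.1), on both strands, for all 43 members and for 27443 genes in all. The G-box (CACGTG), a core of many light-responsive promoters, stood in 20.9% of the members' windows and 7.09% of all windows. The GLK motif (CCAATC) stood in 27.9% of members' windows and 12.2% of all windows, before 10 of 21 antenna genes, 1 of 12 photosystem I genes and 1 of 10 photosystem II genes. The I-box (GATAAG) stood in 20.9% of members' windows and 14.5% of all windows. The CCA1-type motif (AAAATCT) stood in 27.9% of members' windows and 19.6% of all windows, before 6 antenna, 6 photosystem I and 0 photosystem II genes. A motif of type-B response regulators (AGATACG), the family of ARR1, stood before 1 member, LHCA4, and before 2.08% of all genes. Only these exact letters were searched, so shorter or other forms of the motif were not counted. No test was made of these shares, and a match is a description of letters, not a binding site.

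Windows are shown 5′ to 3′ up to the base before the start for the highest antenna gene, the gene with AGATACG and PSBQ2, a called gene, with motif matches on either strand in capitals:
LHCB1.3 (chr1:10477585-10477884, plus strand): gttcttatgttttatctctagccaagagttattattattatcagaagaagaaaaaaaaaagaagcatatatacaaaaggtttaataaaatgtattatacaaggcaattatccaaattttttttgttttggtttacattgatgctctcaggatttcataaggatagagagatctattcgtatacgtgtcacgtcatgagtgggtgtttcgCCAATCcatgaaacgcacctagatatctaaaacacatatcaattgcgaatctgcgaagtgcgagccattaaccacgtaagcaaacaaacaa
LHCA4 (chr3:17495034-17495333, minus strand): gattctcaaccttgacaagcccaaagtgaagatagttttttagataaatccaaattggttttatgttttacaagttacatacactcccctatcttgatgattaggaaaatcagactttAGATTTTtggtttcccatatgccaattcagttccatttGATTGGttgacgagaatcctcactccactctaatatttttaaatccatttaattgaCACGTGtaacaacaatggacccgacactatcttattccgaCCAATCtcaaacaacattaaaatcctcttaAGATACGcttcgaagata
PSBQ2 (chr4:2673244-2673543, minus strand): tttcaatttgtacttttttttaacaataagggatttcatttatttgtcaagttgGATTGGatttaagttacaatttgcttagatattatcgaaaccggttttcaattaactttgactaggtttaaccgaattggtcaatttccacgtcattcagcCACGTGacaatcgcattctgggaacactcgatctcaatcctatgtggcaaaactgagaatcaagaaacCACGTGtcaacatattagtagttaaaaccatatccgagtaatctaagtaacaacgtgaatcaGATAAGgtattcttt
LHCB1.3 has the GLK motif 91 bases upstream. LHCA4 has the CCA1-type motif at 182 bases and the GLK motif at 144 bases, both as the reverse complement. It also has the GLK motif at 48 bases, the G-box at 88 bases and the type-B motif at 18 bases. PSBQ2 has the GLK motif at 246 bases (as its reverse complement), the G-box at 145 and 77 bases and the I-box at 15 bases. The log2 fold change of LHCA4 in arr1 against WT was -0.35, and whether the motif bears on this value was not tested.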

How the data were processed

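Root explants of 3 genotypes were sequenced as RNA on an Illumina instrument, 2 libraries each. The authors deposited, per the file headers, estimated counts and FPKM per isoform with isoform length (other: bases) for 35593 isoforms. CASAVA and DESeq are named in the submitters' processing notes with neither role nor version. The sources used here do not give the aligner, quantifier, strand setting, genome build or annotation. The authors also deposited a table for arr1 against WT with log2 fold changes, p-values adjusted as FDR, FPKM and whole-number counts of unstated scale, treated as a score and not used. Its log2 values were copied without change.

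Isoform counts were summed per gene identifier and rounded. edgeR 4.0.16 (R 4.3.3) fitted all 6 libraries without a block, with filterByExpr, TMM scaling and the quasi-likelihood test, Benjamini-Hochberg adjusted over 18083 genes, at 3 residual degrees of freedom. CPM use the edgeR library sizes and norm factors. The script was tested on simulated data. Totals ran from 8193313 to 9381532 per library. Low estimated counts came in steps of 0.854 to 1.15 per library, and 90.5% to 92.1% of values were whole multiples, so the deposited counts are scaled.

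The replicate numbers are those of the titles, and no label states a shared batch. Deviations of same-numbered libraries from their genotype means correlated at 0.326 (arr1 and WT), 0.550 (Pro35SARR1 and WT) and 0.327 (Pro35SARR1 and arr1) over 16597 genes, all over 0.1, so the fit with the replicate number as a block is given beside the named results where it changes a call. Alternatives were library totals alone, DESeq2 1.42.0 and its size factors, limma 3.58.1 on log2(FPKM + 1) and log2(FPKM + 0.1), no filter, only the 2 genotypes compared, recovered fragments, summed paralogues and leaving out each library.

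The members and lists were chosen with earlier results of these data known. Members given in full are the called ones, the 4 with the lowest adjusted p against WT in each group and comparison, the highest of each group by FPKM, and the PSBO, PSBQ, PSAD, PSAE and PSAH pairs. From the lists, called genes and 5 greening regulators are named by rule. Further genes, WUS, KAT1, ELIP2 and ZAT10 among them, were named after their values were seen. Positions of genes and upstream windows were read from RefSeq TAIR10.1. For 97.4% of 25946 matched genes, and for 38 members, the lower coordinate lay within 500 bases of the deposited lower coordinate. On the minus strand the lower coordinate is the 3′ end of the gene, so the starts of those genes were not compared.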

Additional observations from a re-analysis of the deposited data

How the results depend on the processing

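The count of members called lower in arr1 against WT, 2 of 40, was 1 with library totals alone, 4 with DESeq2, 1 with no filter, 20 with the replicate block, 0 with only the 2 genotypes compared, 0 of 30 features with paralogue sets summed and 0 to 1 with 1 library left out. In Pro35SARR1 against WT, 0 became 11 with DESeq2 and 23 with the replicate block. In Pro35SARR1 against arr1, 0 lower became 2 with library totals alone, 1 with DESeq2 and 9 with the block, and 0 higher became 1 with only the 2 genotypes compared (LHCB2.1+LHCB2.2, 0.54, adjusted p = 0.0449) and 0 to 1 with 1 library left out, the same gene without WT replicate 1 or 2. Without 1 library, the Pro35SARR1 against WT medians ran from -1.03 to -0.51 for the antenna and from -0.96 to -0.48 for photosystem II, and the Pro35SARR1 against arr1 medians from -0.78 to -0.12 and from -0.37 to 0.062. The arr1 against WT medians ran from -0.52 to -0.22 (antenna), -0.58 to -0.27 (photosystem I) and -0.73 to -0.32 (photosystem II). A library left alone was assumed to vary like the others.

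Among the 24 members named by rule, the values that changed sign did so in leave-one-out fits, and none was called. LHCB1.3 in arr1 against WT ran from -0.31 to 0.051, positive without WT replicate 2. In Pro35SARR1 against arr1, without Pro35SARR1 replicate 1, the positive ends were LHCB6 (-0.45 to 0.072), LHCA3 (-0.57 to 0.0019), PSAK (-0.37 to 0.080), PSAN (-0.48 to 0.087), PSBP1 (-0.29 to 0.12), PSBQ1 (-0.41 to 0.14), PSBQ2 (-0.25 to 0.039) and PSBR (-0.50 to 0.041). PSBO2 ran from -0.030 to 0.32, negative without Pro35SARR1 replicate 2. The causes were not tested. Of the other values for these 24 members, 1031 kept their direction and side of the threshold, 56 gained a call and 16 lost one. Of the 16 other members, 4 took both signs over the alternatives in arr1 against WT (LHCA1, LHCB1.4, LHCB4.3 and LHCB7; LHCA1 was at 0.037 with the block), 2 in Pro35SARR1 against WT (LHCB4.3 and LHCB7) and 6 in Pro35SARR1 against arr1 (LHCA5, LHCB3, LHCB4.3, LHCB7, PSBS and PSBX). Library totals alone moved the median of all genes by 0.13 in arr1 against WT and -0.13 in Pro35SARR1 against arr1; relative to it the members stood at -0.45 and -0.27.

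Low depth limits LHCB1.4, LHCB7 and LHCA6. Near-identical copies limit LHCB1 and LHCB2, whose split depends on a quantifier not given in the sources used here. With 2 libraries a genotype, values that miss the threshold do not show that genotypes are alike.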

Other observations

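A few plastid-encoded core genes have values in the same table. psbA, which encodes the D1 protein of photosystem II, was at 8.08 and 7.82 CPM in Pro35SARR1, 14.5 and 7.06 CPM in arr1-labelled libraries and 20.3 and 6.86 CPM in WT. psbD, which encodes its D2 partner, was at 16.4 and 17.8 CPM in Pro35SARR1, 27.2 and 24.7 CPM in arr1-labelled libraries and 25.8 and 22.8 CPM in WT. Both Pro35SARR1 libraries lay below the other 4 for psbD, and the genotypes overlapped for psbA. Of all genes tested, 18.6% had both Pro35SARR1 libraries below both WT libraries, and 30.1% had them below both libraries labelled arr1. psbB was at 0 and 1.34 CPM in Pro35SARR1, 1.38 and 2.51 CPM in arr1-labelled libraries and 0.789 and 2.36 CPM in WT. For rbcL the values in the same order were 9.90 and 14.3, 15.4 and 13.1, and 20.1 and 16.5 CPM. Pro35SARR1 overlapped with WT for psbB and with arr1 for rbcL. Capture of plastid RNA was not tested.

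LHCA5 was the 1 member whose counts were split between isoforms that both carried a large share. The isoform AT1G45474.2 took 64.0% and 55.6% of the gene's estimated counts in Pro35SARR1, 71.3% and 67.6% in the libraries labelled arr1 and 76.1% and 53.3% in WT, where the genotypes overlapped. In every other member with several isoforms of its own locus, 1 isoform took at least 86.2% in each library.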
